A study of Rattus norvegicus with 20 samples.

Results

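Whole blood of rats with reflux esophagitis that had received omeprazole was compared with whole blood of rats with reflux esophagitis that had stayed untreated. The comparison took the 4 arrays titled omeprazole and the 4 titled untreated, 8 of the 20 blood arrays of the series, each from a different Wistar rat. Esophagitis had been induced surgically in both groups. Omeprazole was given at 30 mg/kg, for 7 days before the operation and for 10 days after it, and blood was drawn directly into RNA-preserving tubes. The other 12 arrays came from 4 sham-operated rats and from 8 operated rats given STW5, a liquid preparation of plant extracts, at 0.5 or 2 ml/kg over the same days. They entered the fit for the estimate of the spread and are named here only where the same genes are set beside them.

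Omeprazole is a prodrug that is activated in the acid of the gastric parietal cell and binds the gastric proton pump covalently, which lowers acid secretion. The pump itself is a product of the stomach, so blood shows the drug only at a distance, through its circulating cells. RNA of whole blood comes mostly from reticulocytes, platelets, neutrophils, monocytes and lymphocytes. Less RNA per cell and fewer cells of a type cannot be told apart in such samples.

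The groups lay on different slides. All 4 omeprazole arrays were on 1 slide, the untreated arrays shared another with the sham arrays, and the STW5 arrays were on a further one. The effect of the slide and that of omeprazole cannot be told apart, whether against untreated, sham or STW5 arrays. The signal at the 75th percentile was 96.0 to 225 on the omeprazole arrays and 124 to 266 on the untreated ones, and the share of probes above background was 43.1% to 52.7% and 47.3% to 55.9%. Across probes, which are not independent replicates, the omeprazole arrays correlated with each other at 0.954 to 0.987 and the untreated arrays at 0.877 to 0.950. Defining markers of neutrophils (9 of 9), monocytes (6 of 6), T cells (8 of 8), B cells (6 of 6) and NK cells (6 of 6) were tested in these blood samples, as were 5 of 7 of erythroid cells and 5 of 6 of platelets. Summed on a linear scale relative to the 75th percentile, the T-cell markers reached 49.4 to 65.7 in the omeprazole group and 8.94 to 58.8 in the untreated group. The B-cell markers summed to 17.9 to 28.0 and 1.59 to 33.1, and the neutrophil markers to 108 to 207 and 59.7 to 678. The omeprazole arrays spanned a narrower range than the untreated ones in these 3 sums. They also did in the NK-cell sum (8.27 to 15.8 against 3.67 to 23.7) and the platelet sum (497 to 867 against 502 to 1129). The erythroid sum (2682 to 7403 against 1672 to 5530) and the monocyte sum (489 to 840 against 311 to 616) spanned more linear units with omeprazole. Relative to the lowest array of each group, these ranges were narrower with omeprazole as well. The part of the markers in the results was not tested.

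A level is log2 of a probe's processed intensity relative to the array's 75th percentile. A change is the mean level of the omeprazole group minus that of the untreated group, ± standard error, with n = 4 arrays a group. The standard error takes its spread from all 20 arrays in their 5 groups, not from these 8 alone. It can understate the spread of genes whose untreated arrays lie far apart. A gene was called at an adjusted p below 0.05, by limma with Benjamini-Hochberg adjustment over all 15231 genes tested. Of these, 637 (4.18%) were called, 53 genes (0.348%) higher and 584 (3.83%) lower with omeprazole, and the median change of all genes was 0.10. The sides differed in what could be named. A symbol was given for 43 of the higher genes and for 126 of the lower genes, which is 0.395% and 1.16% of the 10899 genes with a symbol. Of the 584 lower genes 297 were annotated in the files by a probe identifier only, and such entries were called lower more often (14.9% of 1999) than entries with a RefSeq transcript (1.62% of 10974).

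Clec5a, a receptor gene of myeloid cells, had the largest change on the higher side among called genes with a symbol and no overlap. Mapk8ip3, Art2b, Pdzph1 and Mybph followed. Changes of the 15 with the largest changes ran from 1.27 to 2.39, at adjusted p = 0.00021 to 0.0497 by limma. The genes were taken by size of change among called genes with a symbol and no overlap between the 8 arrays, so the absence of overlap was part of the choice. Over all genes, 350 (2.3%) lay higher on every omeprazole array than on any untreated one.

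Clec5a encodes a C-type lectin receptor of monocytes, macrophages and neutrophils, which signals through an adaptor with an activating motif. Its levels were -2.55, -1.98, -3.34 and -1.76 on the omeprazole arrays and -4.71, -4.27, -4.78 and -5.42 on the untreated ones. All omeprazole arrays lay above all untreated arrays. The probe was well above background on 3 omeprazole arrays and on 0 untreated ones, so that the untreated level is a bound and the gene was at least 3.42-fold higher with omeprazole (change 2.39 ± 0.37, adjusted p = 0.00021 by limma). The bound is set by the lowest signal that counts as above background and leaves out sampling error. The 8 STW5 arrays split by group: 4 reached -3.37 to -2.31, within reach of the omeprazole arrays, and 4 reached -4.90 to -3.97. Against their mean the gene was higher by 1.31 ± 0.32 (adjusted p = 0.0159 by limma), a value that describes neither group. Clec4a2, an inhibitory lectin receptor of antigen-presenting and myeloid cells, stood at 0.95, 1.32, 0.65 and 1.41 with omeprazole and at -0.18, 0.33, -0.25 and -1.05 without. Its change was 1.37 ± 0.35 (adjusted p = 0.0247 by limma), and the groups did not overlap, although the lowest omeprazole and the highest untreated array were close.

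The receptors of the immunoglobulin family followed. Lilrc2, a leukocyte immunoglobulin-like receptor gene, had levels of -0.02, 0.23, 0.12 and 0.32 with omeprazole and of -0.98, -1.59, -1.22 and -1.23 without. The omeprazole arrays lay close together and well apart from the untreated ones (change 1.42 ± 0.37, adjusted p = 0.0292 by limma). Fcar, the Fc receptor gene for IgA, stood at -0.17, 0.50, -0.62 and 0.88 against -1.19, -1.74, -0.95 and -0.99, a change of 1.37 ± 0.36 (adjusted p = 0.0352 by limma). Cd101, a gene for an immunoglobulin-superfamily protein of myeloid and T cells, had a change of 1.33 ± 0.33 (adjusted p = 0.0235 by limma). Trem3, a myeloid triggering receptor gene outside the 15, reached 1.16 ± 0.31 (adjusted p = 0.0372 by limma).

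The receptor genes of the Ly49 type encode lectin-like receptors in rodents, many but not all of them receptors of natural killer cells for MHC class I. Those called did not all move one way, and the cells their transcripts came from were not tested. Klra17 stood at -0.55, -0.75, -1.12 and -0.98 with omeprazole and at -1.69, -2.19, -2.24 and -3.07 without, a change of 1.45 ± 0.40 (adjusted p = 0.0477 by limma). Klra2 was called too, at 1.72 ± 0.41 (adjusted p = 0.0153 by limma), but its groups overlapped. Ly49si1 was called lower, at -1.59 ± 0.40 (adjusted p = 0.0235 by limma). Its probe was well above background on 0 omeprazole and 2 untreated arrays, so it was at least 1.30-fold lower with omeprazole. Some genes of this cluster are close copies of each other, and a probe may read several of them. The probes of Klra17, Klra2 and Ly49si1 had no match to a brighter probe of another gene, as defined with the probe sequences.

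The remaining genes of the higher side belong to no single process. Art2b encodes the RT6 protein, an ADP-ribosyltransferase on the surface of rat T cells. Its levels were 0.93, 0.73, 0.73 and 0.55 with omeprazole and 0.27, -3.16, -0.98 and -0.58 without. Here the untreated group was spread widely, and untreated array 2, which was also low in T-cell and B-cell transcripts, lay far below the rest. Without that array the change of Art2b was 1.16 (adjusted p = 0.0745 by limma) instead of 1.85 ± 0.49 (adjusted p = 0.0362 by limma). Cfap141, a cilia- and flagella-associated gene, also rested on that array: its change of 1.43 ± 0.38 (adjusted p = 0.033 by limma) was 0.93 without it (adjusted p = 0.0757 by limma).

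Mapk8ip3, a gene for a scaffold of the JNK kinases and of axonal transport, was well above background on 3 omeprazole arrays and on 0 untreated ones and was at least 2.62-fold higher (change 1.96 ± 0.43, adjusted p = 0.00756 by limma). Omeprazole array 1, at -3.47, lay below the other 3, which stood at -2.58 to -2.55, and the untreated arrays ran from -5.16 to -4.29. Zhx3, a zinc-finger and homeobox repressor gene, was above background on 2 omeprazole and 0 untreated arrays and was at least 1.64-fold higher (adjusted p = 0.0328 by limma). Pdzph1 had a change of 1.73 ± 0.46 and Mybph, a myosin-binding protein gene, one of 1.46 ± 0.35. Rmnd5b, for a subunit of a ubiquitin ligase, had a change of 1.36 ± 0.30, and the untreated arrays lay between -2.56 and -2.37. Rin3, an exchange factor gene for a GTPase of endosomes, changed by 1.28 ± 0.35, and Il36b, an IL-1 family cytokine gene, by 1.27 ± 0.36.

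**Figure D1:**
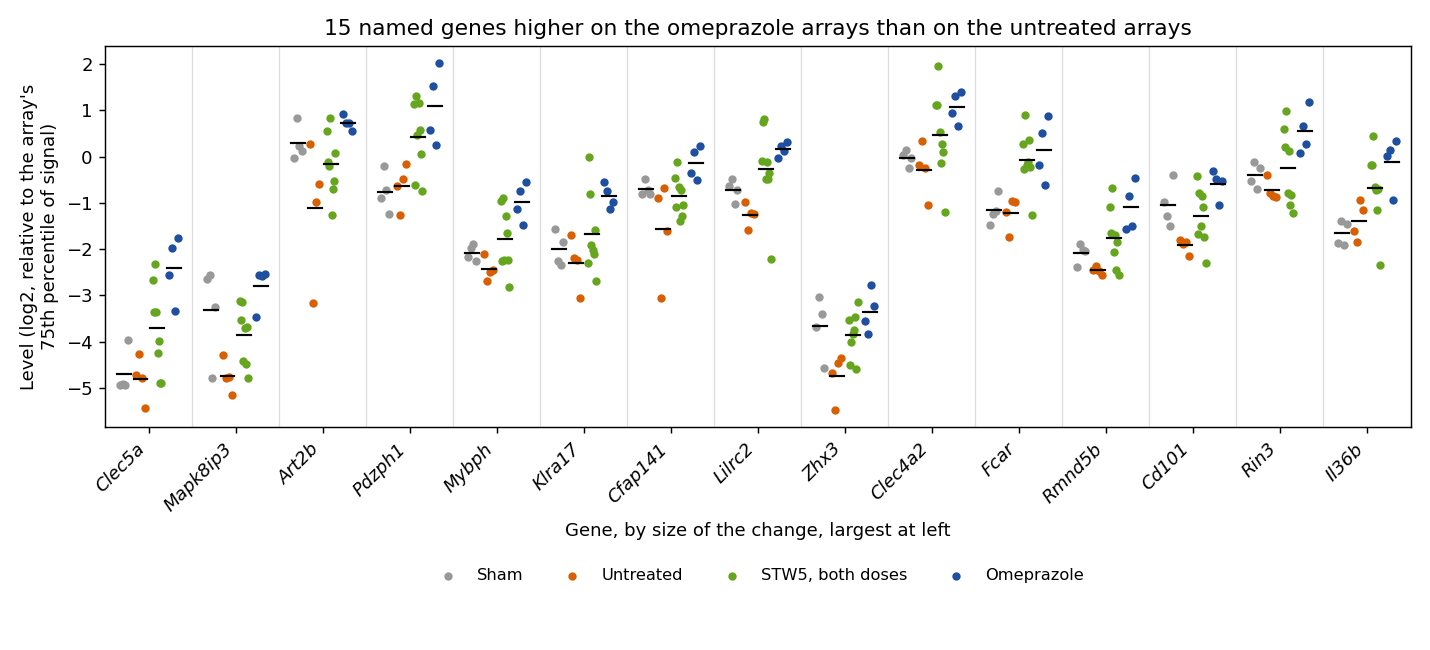
Levels (log2 relative to the array's 75th percentile of signal) of the 15 named genes with the largest changes on the higher side, 1 point per array, with black bars at the group means (4 sham, 4 untreated, 8 STW5 and 4 omeprazole arrays). Omeprazole points lie above all untreated points for each gene by the rule of choice, and for 0 of the 15 genes do they lie above all 16 other arrays.

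Set beside the other rats, few of the higher genes lay outside every other array. Of the 53 genes called higher, 2 lay higher on the omeprazole arrays than on all 16 other arrays, against 0.125% of all genes tested, and of the 43 with a symbol 0 did. These 53 genes had a median change of 1.31 against untreated rats, 0.64 against sham-operated rats and 0.69 against STW5. The comparisons share the omeprazole arrays, and 4.73% of all genes were called against sham and 4.9% against STW5. Of the 53, 8 were also called higher against sham, where 113 genes (0.742%) were, and 12 against STW5, where 34 genes (0.223%) were. Among the 15 shown, Clec5a, Pdzph1, Fcar and Il36b were called against sham, and Clec5a against STW5. The STW5 comparison takes the mean of 2 groups, which differed for Clec5a and for other genes. Clec4a2, for example, ran from 0.52 to 1.96 on the STW5 arrays titled 0.5 ml/kg and from -1.20 to 0.27 on those titled 2 ml/kg. A call or its absence there need not hold for each STW5 group.

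On the lower side the changes were larger. The 15 named genes chosen by the same rule ran from -5.03 to -2.48 (adjusted p = 8.04e-08 to 0.0279 by limma). Over all genes, 760 (4.99%) lay lower on every omeprazole array than on any untreated one. Hist1h2bq, a histone H2B gene, had levels of -4.62, -3.90, -5.41 and -3.35 with omeprazole and of 0.00, 1.32, 1.45 and 0.09 without. Its change was -5.03 ± 0.45 (adjusted p = 3.41e-07 by limma), and the highest omeprazole array lay more than 3 log2 units under the lowest untreated one. The probe was well above background on 1 of 4 omeprazole arrays, so the size of this change rests on values near background. Txnip, which encodes the thioredoxin-interacting protein, which binds thioredoxin and restrains the entry of glucose into cells, stood at -4.03, -4.61, -3.81 and -5.05 against -0.64, 0.01, 0.53 and -0.56. Its change was -4.21 ± 0.44 (adjusted p = 1.72e-06 by limma), and its probe too was well above background on 1 of 4 omeprazole arrays.

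A pair of trypsin genes, Prss3 and Try10, were among the 15. These digestive proteases are made chiefly by the pancreas. Prss3 was measured at -4.57, -5.61, -3.91 and -5.30 with omeprazole and at -1.17, -0.53, -0.49 and -0.29 without. The probe was not well above background on any omeprazole array, and the gene was at least 9.45-fold lower there (adjusted p = 0.00186 by limma). Try10 was at least 7.23-fold lower (adjusted p = 0.0137 by limma). Both spread widely on the sham arrays and in the same order, Prss3 at -0.39, -3.67, -1.01 and -2.37 and Try10 at 1.61, -2.99, -0.94 and -2.12. Whether the probes of these genes read separate transcripts was not tested. The third trypsin gene tested, Prss3b, was above background on 1 omeprazole and 0 untreated arrays and was not called, with a change of 0.48 ± 0.88 (adjusted p = 0.808 by limma). Of 9 pancreatic acinar markers 4 were tested, and their summed level was 0.77 to 1.91 with omeprazole and 0.54 to 1.90 without; Cpb1, Cela1, Cela2a, Pnlip and Cel did not pass the filter on dim probes. Their part in the trypsin result was not tested.

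RT1-T24-4, a rat MHC class I gene, stood at -0.38, -1.19, -0.81 and -0.95 with omeprazole and at 3.32, 2.81, 3.42 and 1.71 without. It was above background on all 8 arrays, with a change of -3.65 ± 0.38 (adjusted p = 1.96e-06 by limma). Some class I genes are close copies of each other, and a probe may read several of them. Among all genes with a symbol 1.16% were called lower and 0.395% higher. Of 25 class I genes tested in a list of 32, 2 (8%) were called lower and 0 higher, with a median change of 0.24. The other was RT1-CE4, at -1.90 ± 0.25 (adjusted p = 3.59e-05 by limma).

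Among chemokine genes, Cxcl16, which encodes a membrane-bound chemokine and scavenger receptor, stood at -3.71, -3.13, -3.20 and -2.90 with omeprazole and at -1.67, 2.43, -2.41 and 2.66 without. The groups did not overlap, but the untreated rats split, with arrays 2 and 4 far above arrays 1 and 3 (change -3.49 ± 0.90, adjusted p = 0.0279 by limma). Without untreated array 4 the change was -2.68 (adjusted p = 0.129 by limma). Sham arrays reached -3.55 to -1.47, and against them the change was -0.64 ± 0.90 (adjusted p = 0.898 by limma). Ccl24, an eosinophil-attracting chemokine gene, had levels of 3.16, 3.04, 3.28 and 2.96 against 4.18, 4.33, 4.83 and 4.58, which did not overlap (change -1.37 ± 0.24, adjusted p = 0.000797 by limma). The Ccl24 probe imperfectly matches a brighter probe of another gene, a class described with the probe sequences.

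The other genes of the lower side have varied roles. Nudt9, an ADP-ribose hydrolase gene, was not above background on any omeprazole array and was at least 4.93-fold lower (adjusted p = 1.1e-06 by limma). Helz, an RNA helicase gene, was at least 4.54-fold lower and Sfswap, a splicing regulator gene, at least 3.66-fold lower, both with 0 omeprazole arrays above background. Pilra encodes an inhibitory paired immunoglobulin-like receptor and was at least 5.19-fold lower (adjusted p = 0.0277 by limma), and Ralgdsl1 at least 2.34-fold lower (adjusted p = 0.0121 by limma). Eif3h, a translation initiation factor subunit gene, stood at 1.08, 0.75, 0.77 and 0.56 against 3.19, 3.55, 3.12 and 3.23, with little spread in either group (change -2.48 ± 0.19, adjusted p = 8.04e-08 by limma). Ndufb4l1, whose name places it with complex I of the respiratory chain, changed by -2.65 ± 0.38, and Krcc1 by -2.56 ± 0.33. Etv5, an ETS transcription factor gene, changed by -2.48 ± 0.54, and its untreated arrays were spread from -2.28 to 0.82.

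**Figure D2:**
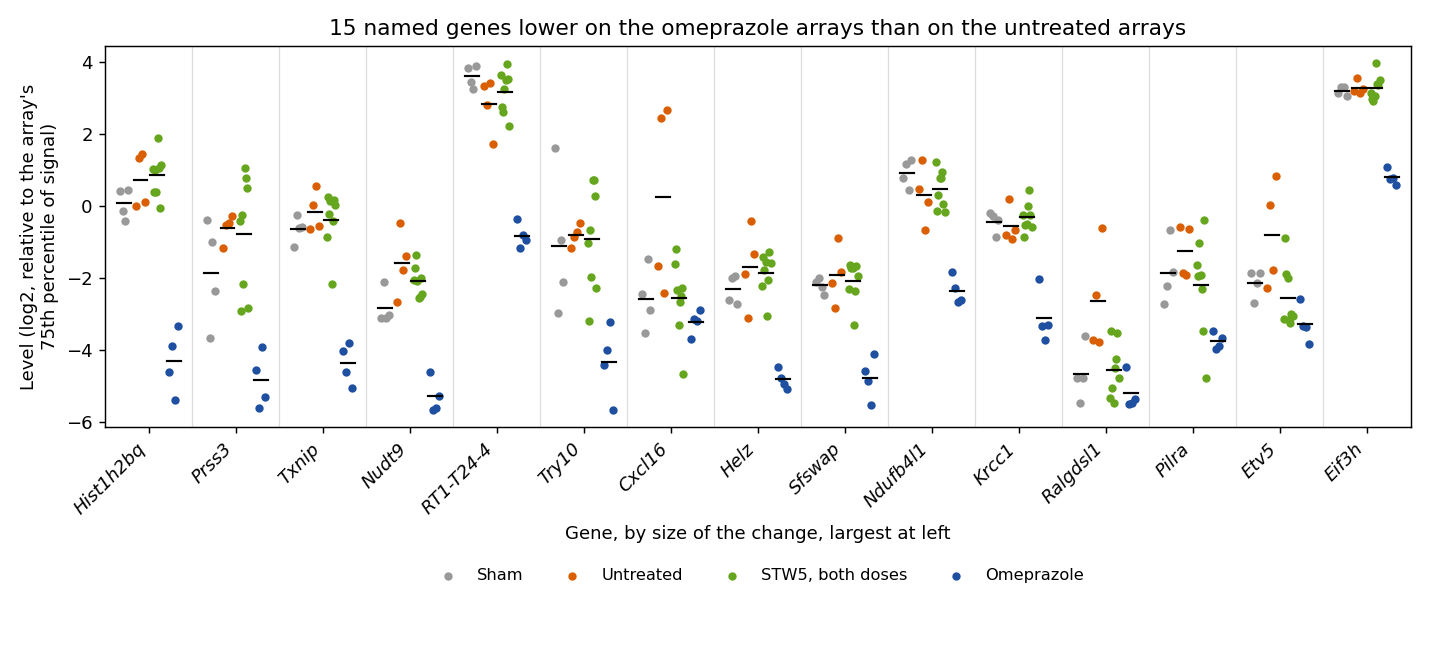
Levels (log2 relative to the array's 75th percentile of signal) of the 15 named genes with the largest changes on the lower side, 1 point per array, with black bars at the group means. For 11 of the 15 the 4 omeprazole arrays lie below all 16 other arrays, while Cxcl16, Ralgdsl1, Pilra and Etv5 overlap with sham or STW5 arrays.

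Most lower genes were low against every other group. Each of those groups lay on other slides than the omeprazole arrays, so slide and omeprazole cannot be told apart in these comparisons. Of the 584 genes called lower, 411 lay below all 16 other arrays on each omeprazole array, against 2.9% of all genes tested, and of the 126 with a symbol 61 did. Their median change was -1.88 against untreated, -1.67 against sham and -1.75 against STW5, in comparisons that share the omeprazole arrays. Of the 584, 444 were also called lower against sham, where 607 genes (3.99%) were, and 521 against STW5, where 713 genes (4.68%) were.

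The probe sequences of both sides differ in base composition, and they are shown for that reason with G and C in capitals. Each runs 5′ to 3′ as in the scanner file, whole or, for AT-rich probes, its first 30 bases. Positions refer to rn4, the build named in the file headers. The Clec5a probe lies at chr4:68175632-68175691 and those of Art2b at chr1:159057829-159057888 and chr1:159057952-159058011, all on the minus strand. The Txnip probe lies at chr2:191360631-191360690 and those of Hist1h2bq at chr17:48459105-48459164 and chr17:48459266-48459325, all on the plus strand. Helz was read at chr10:97090968-97091026 on the plus strand and Sfswap at chr12:28179112-28179171 on the minus strand. Whether a probe lies in coding sequence or a UTR was not read here.
Clec5a: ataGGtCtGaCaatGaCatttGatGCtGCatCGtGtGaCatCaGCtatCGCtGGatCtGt
Art2b, brightest probe: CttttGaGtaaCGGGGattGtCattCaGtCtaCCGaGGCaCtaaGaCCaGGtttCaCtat
Art2b, other probe: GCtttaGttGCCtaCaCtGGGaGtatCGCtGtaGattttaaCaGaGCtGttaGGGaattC
Txnip: tttGtGtatCtttttGtatGattaaaaaCt
Hist1h2bq, brightest probe: aCttttaaGtatttGtGatGtGtGGatata
Hist1h2bq, other probe: GttaCtttGaGtCCCtatttttGtGGaata
Helz: tttttGatGtGaGtCaGaattttGaCaGCt
Sfswap: tCttaCCtGtatatatGtaaatatatCatG

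G and C made up 18.3% of the Txnip probe, 20% of that of Sfswap, 21.7% of those of Helz and of Hist1h2bq and 25% of that of Nudt9. Across the 15 named genes of the lower side the share ran from 18.3% to 45%, with a median of 33.3% and 11 probes under 40%. Across the 15 of the higher side it ran from 38.3% to 55%, with a median of 45% and 1 probe under 40%. The median of all genes with a symbol was 45%.

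Over the whole array the share of probes called lower was larger where they held less G and C. This was counted over the 17231 probes tested, of which 3.98% were called, 625 (3.63%) of them lower and 61 (0.354%) higher. Among probes without an imperfect match to a brighter probe, 22 of 46 with 25% or less of G and C (47.8%) were called lower, then 17.1% at 25 to 30%, 3.19% at 30 to 35% and 0.894% of the 4363 probes over 50%. The median change of these classes went from -1.36 in the first to 0.26 in the last. Single arrays varied: probes of 30% or less lay at -0.65, -0.49, -0.50 and -0.22 on the omeprazole arrays, as medians of level minus the probe's mean over the 20 arrays. They lay at -0.03, 0.00, 0.85 and 0.29 on the untreated arrays and at -0.13 to 0.14 on the sham arrays. Each omeprazole array lay below all untreated and sham arrays, although 1 STW5 array, at -0.36, lay below omeprazole array 4. Probes over 50% lay at 0.29, 0.04, 0.08 and -0.25 on the omeprazole arrays and at 0.28, -0.18, -0.63 and -0.32 on the untreated ones. On omeprazole array 4 the classes were therefore nearly level, and on untreated arrays 3 and 4 they were far apart in the opposite order.

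Probes that imperfectly match another, brighter probe behaved alike. A match was an aligned stretch of at least 40 bases with at least 80% identity to a brighter probe of another gene. Of 1023 such probes 251 (24.5%) were called lower and 0 higher, and of the 16208 others 374 (2.31%) and 61 (0.376%). Among the 584 genes called lower 241 were represented by such a probe, and 0 of the 53 called higher. The pairs that follow show a called probe and then the brighter one over the aligned stretch, with the bases that differ in capitals, since the called member of each pair was lower and the other was not.
Rsl1d1, called: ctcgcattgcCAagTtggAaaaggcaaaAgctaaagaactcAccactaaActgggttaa
brighter probe without a gene name: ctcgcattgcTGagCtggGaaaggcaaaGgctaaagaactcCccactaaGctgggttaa
Rps12l5, called: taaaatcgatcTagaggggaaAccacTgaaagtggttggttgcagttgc
Rps12, brighter: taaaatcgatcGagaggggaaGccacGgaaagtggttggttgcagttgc
Rpl7a, called: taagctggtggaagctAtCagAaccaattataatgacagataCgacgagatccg
brighter probe of an unnamed transcript: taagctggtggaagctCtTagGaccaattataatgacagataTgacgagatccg

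The stretches were 59, 49 and 54 bases long with 7, 3 and 4 differences. The probe of Rsl1d1, a gene for a nucleolar protein with a ribosomal L1 domain, stood at 2.17 with omeprazole and 3.87 without (change -1.70 ± 0.17, adjusted p = 1.57e-06 over all probes by limma), while its brighter partner stood at 6.05 and 6.03 (0.02 ± 0.19). The Rps12l5 probe changed by -1.51 ± 0.34 and that of Rps12, a protein of the small ribosomal subunit, by 0.11 ± 0.32. The Rpl7a probe, for a protein of the large subunit, changed by -1.05 ± 0.17 and its partner by 0.09 ± 0.18. In all 3 pairs the dimmer probe was lower with omeprazole and the brighter one stood within its standard error of 0. The pairs were chosen to show this, and how often it held among the other matching probes was not counted. Of the 318 genes described as ribosomal proteins or named Rpl or Rps, 38 (11.9%) were called lower, 20 of them with such a match, and 1 higher, beside 3.83% of all genes called lower and 0.348% called higher.

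Simple repeats occurred in a pair of called immune probes, shown over 30 bases with the repeat in capitals. The probe of Cx3cr1, the fractalkine receptor gene of monocytes and NK cells (chr8:125033728-125033787, minus strand, change -1.95 ± 0.52, adjusted p = 0.0344 by limma), ends in a repeat of CA. That of RatNP-3b, a neutrophil defensin gene (chr8:124665843-124665902, plus strand, change -2.27 ± 0.32, adjusted p = 7.95e-05 by limma), is a repeat of AAG. Both matched a brighter probe of another gene.
Cx3cr1: aacagattCACACACACACACACACACACA
RatNP-3b: AAGAAGAAGAAGAAGAAGAAGAAGtagaag

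**Figure D3:**
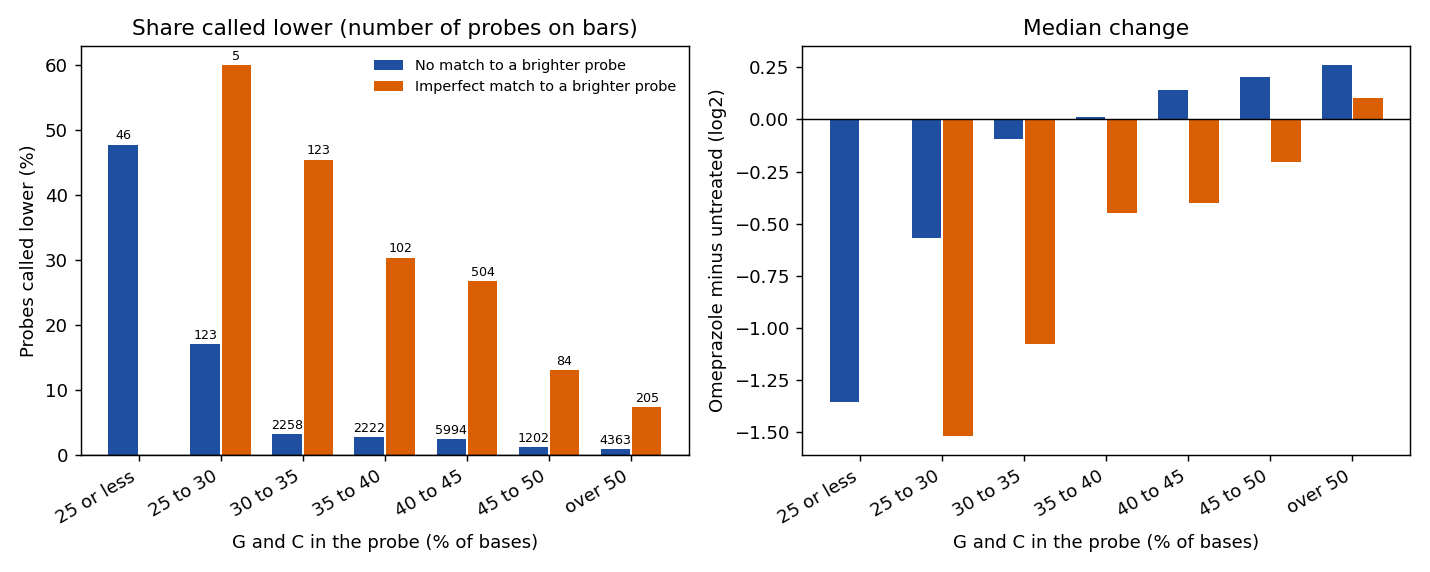
Left, share of probes called lower with omeprazole (%, bars from 0, number of probes on each bar) by content of G and C and by match to a brighter probe of another gene; right, median change (log2) of the same classes. The share without a match is 47.8% at 25% G and C or less and 0.894% over 50%, and with a match it is 45.5% at 30 to 35% and 7.32% over 50%.

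The counts were therefore taken again over the probes with at least 40% of G and C and no match, an alternative added after these patterns had been seen. Of 11334 genes tested in this way, 16 were called higher and 180 lower by limma, 10 and 27 of them with a symbol. All 16 and 176 of the 180 had been called before. Of the 53 higher genes 49 were still tested, and of the 584 lower genes 220. With only the matching probes left out, all 53 higher genes were tested and 28 of them called, and 347 lower genes were tested and 305 called. Since 0 of the 53 were represented by a matching probe, their levels and changes were the same as before. Their lost calls came through the shared spread and the adjustment over the genes left. With each class of G and C centred on its own median per array, 67 were called higher and 580 lower, 33 of the 53 and 523 of the 584 among them. Centred in this way, the changes of Txnip (-2.78), Hist1h2bq (-3.60), Nudt9 (-2.28), Helz (-1.70) and Sfswap (-1.42) were smaller and were called still (adjusted p = 3.31e-05 to 0.0109 by limma), while those of Cpox (-0.68) and Egr1 (-1.52) were not (adjusted p = 0.508 and 0.168 by limma). Zhx3 (1.21), Rin3 (1.09), Retreg2 (0.75), Ly49si1 (-1.35) and Cxcl16 (-3.24) also lost the call (adjusted p = 0.0616 to 0.113 by limma).

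Genes measured by several probes gave a further view. In the 5 named genes called higher with more than 1 tested probe, the called probes had a median change of 1.37, and 5 of the 6 other probes lay above 0, with a median of 1.06. The Art2b probes changed by 1.85 ± 0.49 and 2.22 ± 0.65, those of Fcar by 1.37 ± 0.36 and 1.59 ± 0.39, and those of Pdzph1 by 1.73 ± 0.47 and 1.85 ± 0.48. Both probes were called for Fcar and Pdzph1 (adjusted p = 0.0217 to 0.0386 over all probes by limma), and the second of Art2b was not (adjusted p = 0.0673). Retreg2, a gene of endoplasmic reticulum turnover, had 0.94 ± 0.25 and 0.54 ± 0.34. Bfar, an apoptosis regulator gene, had 1.02 ± 0.27 on its called probe and 0.28 ± 0.26 and -0.59 ± 0.47 on the others, so these disagreed.

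In the 27 genes called lower with more than 1 tested probe, the called probes had a median change of -1.45 and the 31 others of -0.21, and in 3 genes another probe was called lower too. The second Hist1h2bq probe, from the same stretch of chromosome 17, changed by -0.59 ± 0.44 (adjusted p = 0.528 over all probes by limma) where the first changed by -5.03. Eif3h had 2 more probes, at -0.47 ± 0.24 and 0.38 ± 0.39, beside -2.48 ± 0.19. Try10 had a second probe at -0.45 ± 0.76 beside -3.52 ± 0.83, and RatNP-3b one at -0.21 ± 1.28. Rps4y2, a ribosomal protein gene, stood at -1.88 ± 0.21 and 0.10 ± 0.54. E2f3, a transcription factor gene of the cell cycle, had -1.45 ± 0.21 and 0.06 ± 0.35. Both probes of Egr1, an immediate early transcription factor gene, were above background on 0 omeprazole and 3 untreated arrays, so their changes of -2.19 ± 0.55 and -1.70 ± 0.58 rest on bounds, at least 2.82-fold and 2.40-fold lower. Of the 15 lowest named genes 12 had 1 tested probe, Txnip among them, and of the 15 highest 12 as well. Probes of a gene can read different transcripts and are no replicates of each other.

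**Figure D4:**
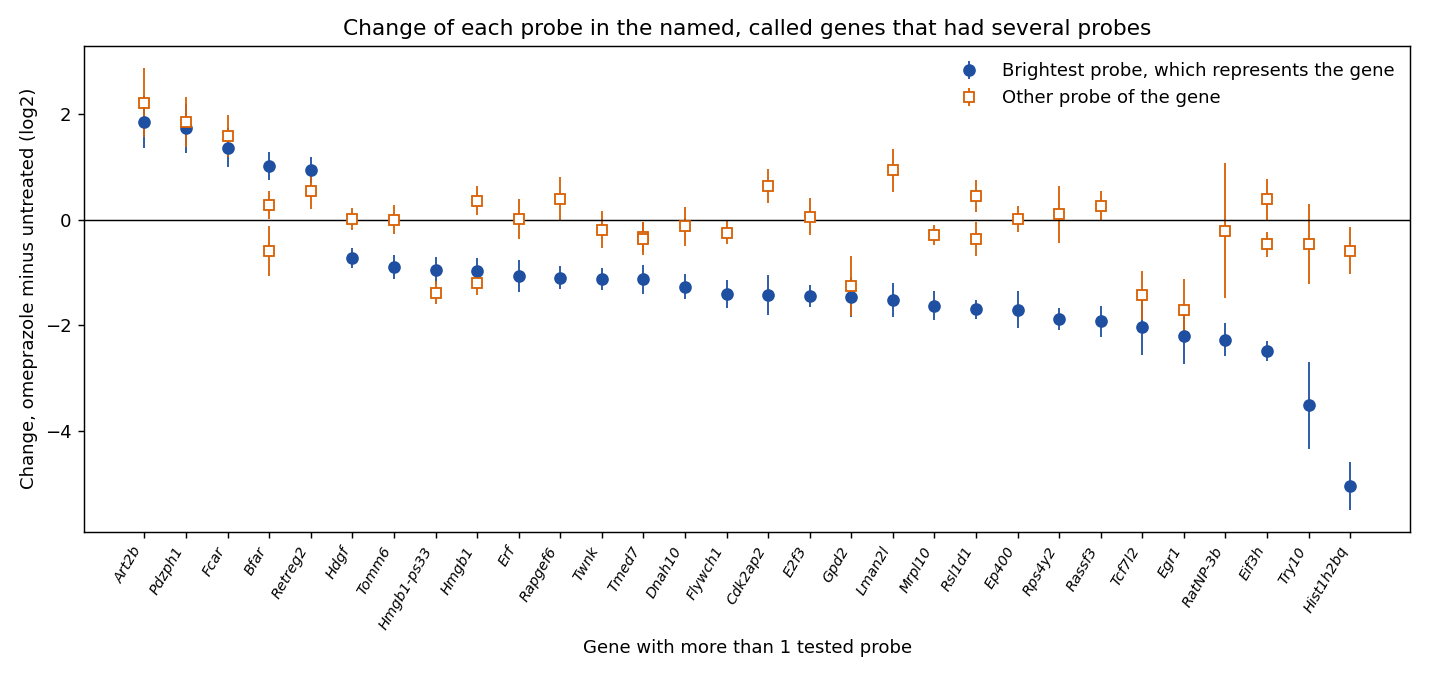
Change (log2, omeprazole minus untreated, bars are standard errors) of each tested probe in the 5 higher and 25 lower named genes with more than 1 probe. On the higher side the open squares (other probes) lie near the filled circles (brightest probe) for Art2b, Pdzph1 and Fcar, and on the lower side most squares lie near 0.

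Genes tied to the drug's own action were set out from lists. Of the 17 tested genes of the gastric and vacuolar proton pumps 0 were called by limma and 2 had an unadjusted p below 0.05 (median change 0.37, from -0.60 to 0.67, beside 0.10 for all genes). Atp4a, the catalytic subunit of the pump that omeprazole blocks, stood at 0.18 (adjusted p = 0.82 by limma), and the smallest p belonged to Atp6v1a, a vacuolar pump subunit gene, at -0.60 ± 0.22 (adjusted p = 0.172). Without untreated array 3 the median was 0.14, beside 0.06 for all genes there. Omeprazole is also known to activate the aryl hydrocarbon receptor in liver. Of 9 tested genes of that receptor and of drug metabolism 0 were called and 1 had an unadjusted p below 0.05 (median 0.40, and 0.12 without untreated array 3). Slc7a11, a cystine transporter gene, stood at 0.80 ± 0.32 (adjusted p = 0.221 by limma) and Abcb1b, a drug efflux pump gene, at -1.04 ± 0.52 (adjusted p = 0.346). On simulated data this design called 21% of genes with a true log2 change of 1 and 78% with one of 2, so smaller changes would mostly be missed. Of the 17 thioredoxin system genes Txnip was called and 12 lay above 0, with a median of 0.27 that was 0.00 without untreated array 3; Txn1, thioredoxin itself, stood at 0.04 (adjusted p = 0.98 by limma).

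Transcripts of blood cell types differed in their medians more than in single calls. T-cell genes had a median of 0.75, with 23 of 27 above 0, 0 called and 6 at an unadjusted p below 0.05. Ccr7, a lymph node homing receptor gene, stood at 1.64 ± 0.49 (adjusted p = 0.0724 by limma) and Cd3g, a chain of the CD3 complex, at 1.39 ± 0.46 (adjusted p = 0.12). Without untreated array 2 the T-cell median was 0.11, close to the 0.06 of all genes there, and the B-cell median went from 0.41 to -0.14. Erythroid genes had a median of 0.67, with 34 of 37 above 0, and 1 was called lower: Cpox, a heme synthesis enzyme gene read by a probe of 23.3% G and C, was at least 1.84-fold lower (adjusted p = 0.0078 by limma). Leaving out omeprazole array 1, untreated array 3 or untreated array 4 put the erythroid median at 0.33 to 0.36.

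Platelet genes lay the other way, with a median of -0.45 and 22 of 25 below 0. Of the 25, 2 (8%) were called lower and 0 higher, beside 1.16% and 0.395% of all genes with a symbol. F5, coagulation factor V, was called at -1.48 ± 0.38 (adjusted p = 0.0273 by limma) and Ltbp1, a TGF-beta binding protein gene, at -1.75 ± 0.49 (adjusted p = 0.0479), while Selp, P-selectin, stood at -2.60 (adjusted p = 0.063). The F5 groups overlapped. The platelet median was -0.16 without untreated array 2 and -0.26 without untreated array 3. Neutrophil genes had a median of 0.44, with Clec5a called and 19 of 24 above 0, and granule genes one of 0.51 with 0 of 11 called and 1 at an unadjusted p below 0.05. Ngp and Camp, granule protein genes, stood at 1.54 ± 0.72 and 1.41 ± 0.69 (adjusted p = 0.309 and 0.333 by limma). Leaving out 1 array put the neutrophil median at 0.20 (untreated array 1) to 0.70 (untreated array 2) and the granule median at 0.23 (untreated array 3) to 1.16 (untreated array 2). Monocyte genes had a median of -0.20, with Cx3cr1 called lower of 18, and that median ran from -0.53 without untreated array 1 to 0.07 without untreated array 4, so its sign was not stable.

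Receptor families held 6 of the called higher genes. Of 40 tested C-type lectin and natural killer receptor genes 4 (10%) were called higher and 1 (2.5%) lower, beside 0.395% and 1.16% of all genes with a symbol; their median was 0.27. Of 40 paired immunoglobulin-like and Fc receptor genes, 2 (5%) were called higher and 1 (2.5%) lower, and the median was 0.27 too. Fcar counts under the 15 and not in this list. Of the 6 called higher in these lists, only Clec5a kept its call whichever of the 8 arrays was left out. Klra17 lost its call in 7 of the 8 fits, Lilrc2 and Trem3 in 5 each, Klra2 in 4 and Clec4a2 in 3. Under the other background correction described below, Clec5a and Klra17 were not called and the others were. The lists were chosen with earlier results of these data known. In 33 chemokine and chemokine receptor genes 0 were called higher and 3 lower (median -0.08), and in 33 interferon-stimulated genes 0 were called and 2 had an unadjusted p below 0.05 (median 0.53, with Ifit3 at 1.59 ± 0.47, adjusted p = 0.0667 by limma). Without untreated array 2 the interferon median was 0.17. Inflammatory cytokine and NF-kB genes had 0 of 21 called and 4 at an unadjusted p below 0.05 (median 0.13). Il1b stood at 1.11 ± 0.36 and Il18 at -2.55 ± 0.74 (adjusted p = 0.112 and 0.0585 by limma).

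Housekeeping groups showed single called genes, lower in most. Of 88 cytosolic ribosomal protein genes 0 were called higher and 4 lower (Rps4y2, Rpl7a, Rps12l5 and Rpl37al2), which is 4.55% beside 1.16% of all genes with a symbol, with a median of 0.26, 2 of these through a probe that matched a brighter one. Of 81 respiratory chain genes 2 (2.47%) were called lower, Ndufb4l1 and the succinate dehydrogenase subunit gene Sdhc, with a median of 0.16, and of 31 histone genes Hist1h2bq was, with a median of 0.24. Of 45 proteasome genes 0 were called and 5 had an unadjusted p below 0.05 (median 0.29, by limma). Without untreated array 3 the medians were -0.02 for ribosomal, -0.02 for respiratory chain and 0.01 for proteasome genes. Among 30 genes that add ADP-ribose or split it, Art2b was called higher and Nudt9 lower (median 0.20). Of 20 heat shock and unfolded protein response genes Pdia4, a disulfide isomerase gene, was called lower at -2.17 ± 0.45 (adjusted p = 0.00491 by limma). Of 24 immediate early genes Egr1 was, and of 21 glucocorticoid-induced genes 0 were called, with 7 at an unadjusted p below 0.05 (median -0.11).

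**Figure D5:**
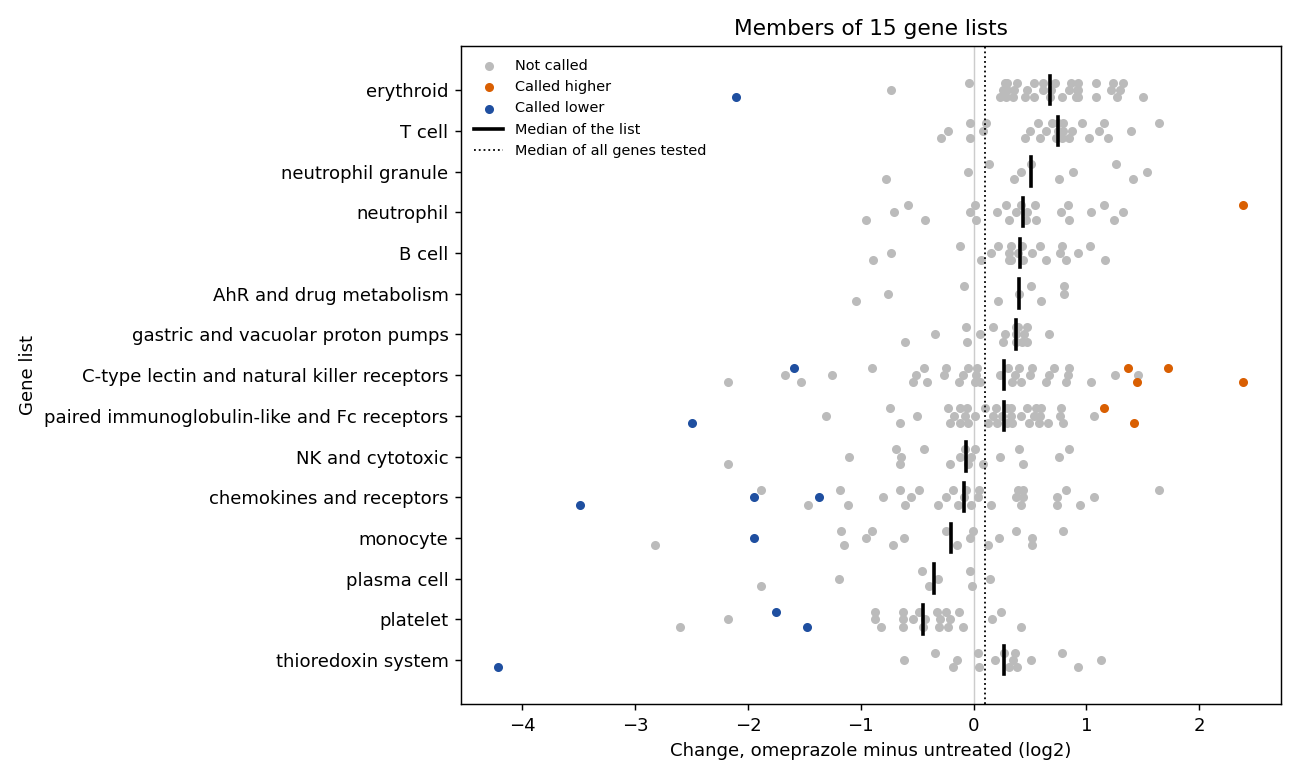
Change (log2, omeprazole minus untreated) of the tested members of 15 gene lists, 1 point per gene, with the list's median as a black bar and the median of all genes (0.10) as a dotted line. T-cell and erythroid points lie mostly to the right (medians 0.75 and 0.67), platelet points to the left (-0.45), and called genes (coloured) are few in each list.

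Many of the higher calls were near the threshold. With the spread taken from the 8 arrays only, 47 of the 53 higher genes were tested and 6 of them called by limma. Of the 584 lower genes 516 were tested and 350 called. Of the called genes named here 44 were tested in that way, and 22 kept their call. Of the 15 highest named genes, Clec5a, Mapk8ip3 and Rmnd5b kept their call by limma whichever of the 8 arrays was left out, and of the 15 lowest 12 did, all but Cxcl16, Try10 and Pilra. Where calls of the 15 highest ended, the change was at least 63.1% of its full size, and it was over 1.5 times smaller for Art2b and Cfap141 without untreated array 2 alone. Among the 15 highest, 11 calls ended without omeprazole array 2, 11 without omeprazole array 4, 10 without untreated array 2 and 8 without untreated array 4. Leaving out omeprazole array 1 ended 6, omeprazole array 3 or untreated array 3 ended 4 each, and untreated array 1 ended 1. The call of Try10 ended without omeprazole array 4, that of Pilra without omeprazole array 2, 3 or 4 or untreated array 1 or 4, and that of Cxcl16 without any 1 omeprazole array or untreated array 2 or 4. Over all genes the higher calls numbered 8 without omeprazole array 2, 19 without omeprazole array 4 and 331 without untreated array 1, while the lower calls ran from 468 to 833. Untreated array 1 correlated with the sham arrays at 0.984 on average and with the other untreated arrays at 0.920.

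Genes near background depended on how the background was taken off. With normexp, which models the background and adds a constant of 50 that draws dim values together, 11 of the 15 highest and 9 of the 15 lowest named genes were called. Clec5a then stood at 0.65 (adjusted p = 0.052 by limma) and Mapk8ip3 at 0.52 (adjusted p = 0.0578 by limma), while Zhx3 stood at 0.37 and Klra17 at 0.77. On the lower side Prss3 stood at -1.36 (adjusted p = 0.058 by limma), Try10 at -1.03, Pilra at -0.75, Cxcl16 at -1.98, Etv5 at -1.14 and Ralgdsl1 at -0.49, none of them called. Txnip (-1.57), Nudt9 (-0.96), Helz (-0.84), Sfswap (-0.69) and Hist1h2bq (-2.26) were smaller and called still. Of the other genes named as called, those that were smaller and no longer called were Pdia4 (-0.29), Cpox (-0.22), Egr1 (-0.37), Ly49si1 (-0.12), Ltbp1 (-0.54), Bfar (0.44) and Sdhc (-0.56), and F5 (-1.39) and Cx3cr1 (-1.81) lost the call at nearly the same size. All 13 folds given as at least for the probe that represents a gene were larger than that gene's fold under normexp. They hold for the scanner's background subtraction alone. Of 30 called genes named here and above background on all 8 arrays, 26 were called with normexp, and the log2 change of 10 of the 30 was over 1.5 times smaller. RT1-T24-4 stood at -2.98, Eif3h at -2.30 and Ccl24 at -1.40, while Ndufb4l1 (-1.45), Mybph (0.80) and Cd101 (0.72) were among the smaller. Taking the mean of a gene's probes in place of the brightest gave -2.81 for Hist1h2bq and -0.85 for Eif3h, both called, and -1.98 for Try10, not called (adjusted p = 0.179 by limma).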

How the data were processed

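Cy3-labelled cRNA from whole blood was hybridised to 1-colour Agilent rat arrays with 60-base probes, 1 array per rat, per the labels. Spot intensity in the deposited scanner files came from Agilent Feature Extraction (version 10.7.3.1, per the file headers), which had subtracted the background, detrended the signal and set low values to a surrogate, with no normalization between arrays. A linear ratio per spot, in the authors' table of values, has no stated scaling and served as an alternative.

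Of 62976 spots per array 58717 were no controls; no such spot was saturated. Outlier spots were left out and spots of a probe averaged. Levels are log2 of intensity over that array's 75th percentile. Of 30367 probes 17231 were well above background on at least 4 of 20 arrays and were tested. The brightest probe represented each of 15231 genes. Names came from RefSeq's table through the accession (18005 probes), another accession (337) or the symbol in the file (3038), and 8987 probes stayed without a name. A model with 5 group means was fitted with limma 3.58.1 in R 4.3.3 (the data.table package in version 1.17.8; 15 residual degrees of freedom, prior 4.23). Tests were two-sided, adjusted by Benjamini-Hochberg, and the median standard error of a change was 0.35. The number of arrays limits the precision, and p-values measure the spread between these rats' arrays. Probe matches were found with BLAST 2.17.0 (word size 11). The fit was tested on simulated data.

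Genes were named by rule: the 15 largest changes on each side among called genes with a symbol and no overlap; per list, up to 4 called members, or else the 2 of smallest p; and called genes with several probes. The members, the lists and this rule were chosen with earlier results of these data known.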

Additional observations from a re-analysis of the deposited data

Results flagged for a closer look

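In 102 sets of 4 arrays (51 called genes named above, in the omeprazole and the untreated group), 3 held a single array whose gap to the next was a large part of the group's range, past the critical value of Dixon's test. Chance gives about 1 in 20. Mapk8ip3 stood at -3.47 on omeprazole array 1 and at -2.58 to -2.55 on the other omeprazole arrays. Ralgdsl1 stood at -4.47 on omeprazole array 1 and at -5.49 to -5.38 on the others, all of them not well above background. Rps4y2 stood at 4.45 on untreated array 2 and at 3.96 to 4.04 on the others.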

How the results depend on the processing

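Omeprazole against untreated gave 637 calls (53 higher, 584 lower), against sham 720 (113, 607) and against STW5 747 (34, 713). Against untreated, total, higher and lower calls were 411, 29 and 382 with spike-in scaling, 360, 7 and 353 with 8 arrays only, 1809, 621 and 1188 with array weights, 334, 28 and 306 with probes without a brighter match, 196, 16 and 180 with those also of 40% G and C or more, and 2049, 1012 and 1037 without untreated arrays 1 and 2. Higher calls were 94 with quantile normalization and 16 with no filter on dim probes.

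Against sham, higher calls were 67 with normexp, 180 with quantile normalization, 197 with the percentile over probes above background on all arrays, and 37 with no filter. Total and lower calls were 350 and 219 with spike-in scaling. Total, higher and lower calls were 4541, 1733 and 2808 with array weights, 380, 63 and 317 without a brighter match, and 270, 47 and 223 with 40% G and C or more as well. Against STW5, higher calls were 86, 92 and 13 with quantile normalization, that percentile and no filter. Total and lower calls were 361 and 322 with spike-in scaling, 405 and 378 without a brighter match, and 276 and 253 with 40% G and C or more as well, and array weights gave 3520 (1378, 2142). The causes were not tested.

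Leaving out 1 omeprazole or untreated array gave 476 to 1164 calls against untreated (8 to 331 higher, 468 to 833 lower). Leaving out 1 omeprazole array gave 436 to 733 against sham (4 to 152 higher) and 544 to 753 against STW5 (7 to 35 higher). No sham or STW5 array was left out.

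The replicate numbers were not taken to pair the rats: deviations of same-numbered arrays correlated at 0.46, 0.16, 0.03 and 0.27. With the replicate block 731 genes were called, 82 higher and 649 lower.

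Of the 51 called genes named above, 2 changed direction. Rsl1d1 stood at 0.46 with 8 arrays only (adjusted p = 0.643 by limma), where another of its probes was the brightest, and Sdhc at 0.58 with classes of G and C centred (adjusted p = 0.108 by limma). Signal near background limits the folds given as at least.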
